A study of Homo sapiens with 14 samples.

Results

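The 10 genes that encode AP-1 subunits, namely JUN, JUNB, JUND, FOS, FOSB, FOSL1, FOSL2, BATF, BATF2 and BATF3, were examined among 19970 protein-coding genes in the open chromatin of 2 human multiple myeloma (MM) cell lines. The genes were chosen by family membership, and each was read with its gene body plus 100 kb on either side. Their windows held 185 of the 72802 reference peaks of MM.1S and 185 of the 79969 reference peaks of RPMI8226. Open chromatin had been profiled by Omni-ATAC, in which a transposase cuts and tags accessible DNA, in 14 libraries. MM.1S was grown as a monoculture (MONO, 3 libraries), in the upper transwell above the human bone marrow stromal line HS5 (TSW, 3 libraries) or in the lower chamber in contact with HS5 (CO, 3 libraries). RPMI8226 had 1 MONO, 2 TSW and 2 CO libraries. Each line is a long-established human MM line, and MM cells had been sorted as CD90- CD38+ cells before tagging, a gate intended to leave HS5 cells out.

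Each line had 1 list of reference peaks, made by the authors from peaks found in at least 3 of its libraries whatever the culture condition. The lists give a position and a whole number per peak, read here as the number of libraries with the peak, from 3 to 9 in MM.1S and from 3 to 5 in RPMI8226. They hold no read counts per peak and pool the culture conditions, which therefore cannot be compared at these genes. The study tabulates the read pairs sequenced per library, which differed between libraries. They were not used here, and the part of depth in the line-only peaks was not tested. With 1 list per line there was no replicate check, and no test was made. A peak had to appear in 3 of 9 libraries to enter the MM.1S list and in 3 of 5 to enter the RPMI8226 list, so the bar differed between the lines. In such bulk data, a site open in few cells and a site weakly open in many cannot be told apart. Promoter peaks were present in both lists at 8 of 8 plasma cell marker genes (SDC1, CD38 and PRDM1 among them) and also at 6 of 10 stromal marker genes, while COL3A1, THY1, LUM and POSTN had none in either list. In the methods of its RNA analysis, the study reports a minimal level of HS5 cells left among the sorted MM cells of the lower chamber. The part of HS5 cells in the peaks described here was not tested.

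AP-1 is a dimeric transcription factor whose subunits pair through leucine zippers and contact DNA through basic regions. JUN proteins can pair with each other or with FOS and BATF proteins, whereas FOS proteins need a JUN-type partner. BATF proteins lack the activation domains of FOS and cooperate with IRF factors in lymphoid cells. Many of the genes are immediate early genes, which are switched on quickly by growth factor, cytokine and stress signals, and in MM cells JUNB is known to respond to the bone marrow stroma. AP-1 binds the sequence TGAGTCA or its reverse complement TGACTCA, and some subunit genes, JUN and FOSL1 among them, are known to be regulated by AP-1 itself.

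At the level of whole loci, no subunit gene was called more open in RPMI8226. A locus was called more open in a line when the share of that line's list in the window was at least 1.5 times the share of the other list, with at least 5 peaks in both lists together. By this rule 0 of 10 subunit loci were more open in RPMI8226, where 10.8% of all protein-coding genes with at least 5 peaks were called, and 0 of 10 were more open in MM.1S, where 16.3% were called. These background shares were not matched for number of peaks. Subunit windows held medians of 18.0 MM.1S and 20.5 RPMI8226 peaks, beside 11.0 and 11.0 over all protein-coding genes, and a ratio varies more where peaks are few. The ratio of RPMI8226 over MM.1S had a median of 0.936 over the 10 loci and of 0.910 over all protein-coding genes with at least 5 peaks. It ran from 0.728 at JUN and FOSL2 to 1.11 at BATF3, and the 95% exact interval of every subunit locus included 1. These intervals, like all intervals given here, cover counting error over peaks and nothing else. They were wide, reaching 1.32 at JUNB and 3.05 at BATF, and at 9 of the 10 loci a ratio of 1.5 lay inside the interval, so a difference of that size was not detectable from these numbers of peaks.

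**Figure D1:**
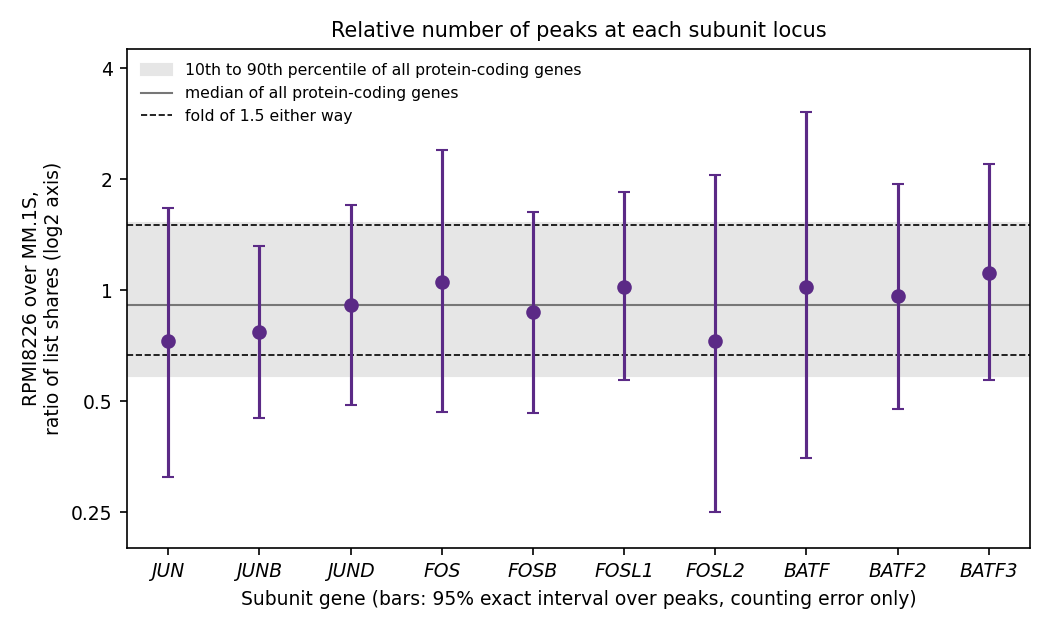
Ratio of list shares, RPMI8226 over MM.1S, on a log2 axis for each subunit gene. Points are ratios, bars are 95% exact intervals, the grey band spans the 10th to 90th percentile of all protein-coding genes (0.585 to 1.52), the grey line is their median and broken lines mark a fold of 1.5 either way. All 10 points lie between the broken lines, from 0.728 to 1.11.

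Single peaks at these loci differed between the lists, whether or not whole loci also differed by less than could be detected. Peaks of the 2 lists that had at least 1 bp in common were called shared, and the remaining peaks line-only. It was called a promoter peak when it lay within 2500 bp of any annotated transcript start, and distal otherwise. Line-only distal peaks with full support, meaning those found in all libraries of the line, numbered 1 in MM.1S and 10 in RPMI8226. Among these, exactly 3 held an AP-1 sequence in their central 200 bp. They lay 13.1 kb upstream of JUND in MM.1S (9 of 9 libraries), 40.9 kb upstream of FOSL1 in RPMI8226 (5 of 5 libraries) and 34.9 kb upstream of BATF in RPMI8226 (5 of 5 libraries). Each was intergenic. Their sequences around the AP-1 match are shown because they are the firmest line-only sites with the family's own binding sequence, read from the forward strand of hg38 with the match in capitals.
JUND, MM.1S-only peak, chr19:18294742-18294798: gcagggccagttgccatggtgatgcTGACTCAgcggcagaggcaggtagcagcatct
FOSL1, RPMI8226-only peak, chr11:65941480-65941536: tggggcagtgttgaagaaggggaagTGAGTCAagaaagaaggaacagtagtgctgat
BATF, RPMI8226-only peak, chr14:75487507-75487563: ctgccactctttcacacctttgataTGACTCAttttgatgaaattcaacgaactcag

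The letters of the match were the same in JUND and BATF, and in FOSL1 they read as the reverse complement. The FOSL1 peak held a second AP-1 match close to its edge, 40602 bp upstream of the gene start, beside the central one at 40935 bp. An AP-1 match is common in open chromatin: it stood in the centre of 9.16% of all distal peaks of the MM.1S list and 17.0% of those of the RPMI8226 list. Among line-only distal peaks of the whole lists, with any support, the shares were 5.65% and 21.8%.

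Near the gene starts, further sequences were chosen for display after their values were seen. They hold known kinds of signal-response elements, namely the cAMP response element (CRE, TGACGTCA), the serum response element (SRE, a CArG box) and the STAT3 element (TTCCNGGAA), or AP-1. Capitals again mark the matches, both strands were searched, and the letters are those of the forward strand of hg38.
FOSB, MM.1S-only peak over the start, CRE then SRE, chr19:45467646-45467756: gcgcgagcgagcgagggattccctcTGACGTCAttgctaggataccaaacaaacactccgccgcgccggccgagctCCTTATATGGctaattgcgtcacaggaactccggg
FOS, shared start peak, SRE, chr14:75278489-75278548: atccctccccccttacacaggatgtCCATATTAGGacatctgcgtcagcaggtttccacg
JUND, shared start peak, CRE, chr19:18281790-18281847: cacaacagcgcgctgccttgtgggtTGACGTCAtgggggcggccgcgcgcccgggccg
JUNB, shared downstream peak, STAT3 element, chr19:12793666-12793724: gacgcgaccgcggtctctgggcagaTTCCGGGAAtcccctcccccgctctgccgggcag
FOSL1, RPMI8226-only intron peak, AP-1, chr11:65899361-65899417: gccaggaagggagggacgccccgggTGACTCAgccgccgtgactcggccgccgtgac

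The SRE of FOS was centred 308 bp upstream of the gene start and that of FOSB 269 bp upstream, with the CRE of FOSB at 321 bp upstream and that of JUND at 196 bp upstream. An SRE occurred anywhere in 2.72% of MM.1S promoter peaks and 2.00% of RPMI8226 promoter peaks. The CRE occurred in 2.50% and 2.16% of them, and the STAT3 element in 2.57% and 1.80%. The AP-1 sequence was more common, found anywhere in 13.1% of MM.1S promoter peaks and 15.6% of RPMI8226 promoter peaks. In RefSeq promoter windows of GRCh38.p14 (250 bp before to 50 bp after a start), the AP-1 sequence occurred in 4.95% of 35116 promoters, the CRE in 1.85% and the SRE in 1.29%. Of the 8 subunit genes with an entry there, FOSL2 held the AP-1 sequence and JUND held the CRE. FOSL1 and BATF3 had no entry.

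Each of the 10 subunit genes had a peak within 2500 bp of its own annotated starts in both lists, where 77.0% of protein-coding genes had one in MM.1S and 72.0% in RPMI8226. There were 20 such peaks in MM.1S and 21 in RPMI8226. The gene start itself lay inside a peak of both lists at 8 of the 10 genes, against 45.9% of protein-coding genes. At FOSB and BATF3 it lay inside a peak of the MM.1S list only, as at 9.67% of genes, and at 0 of 10 inside a peak of the RPMI8226 list only, as at 1.90% of genes. All these start peaks were called in every library of their line. Where both lists covered the start, the MM.1S peak was the wider one at 7 of 8 genes, with JUND as the exception (1335 bp in MM.1S and 1358 bp in RPMI8226).

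**Figure D2:**
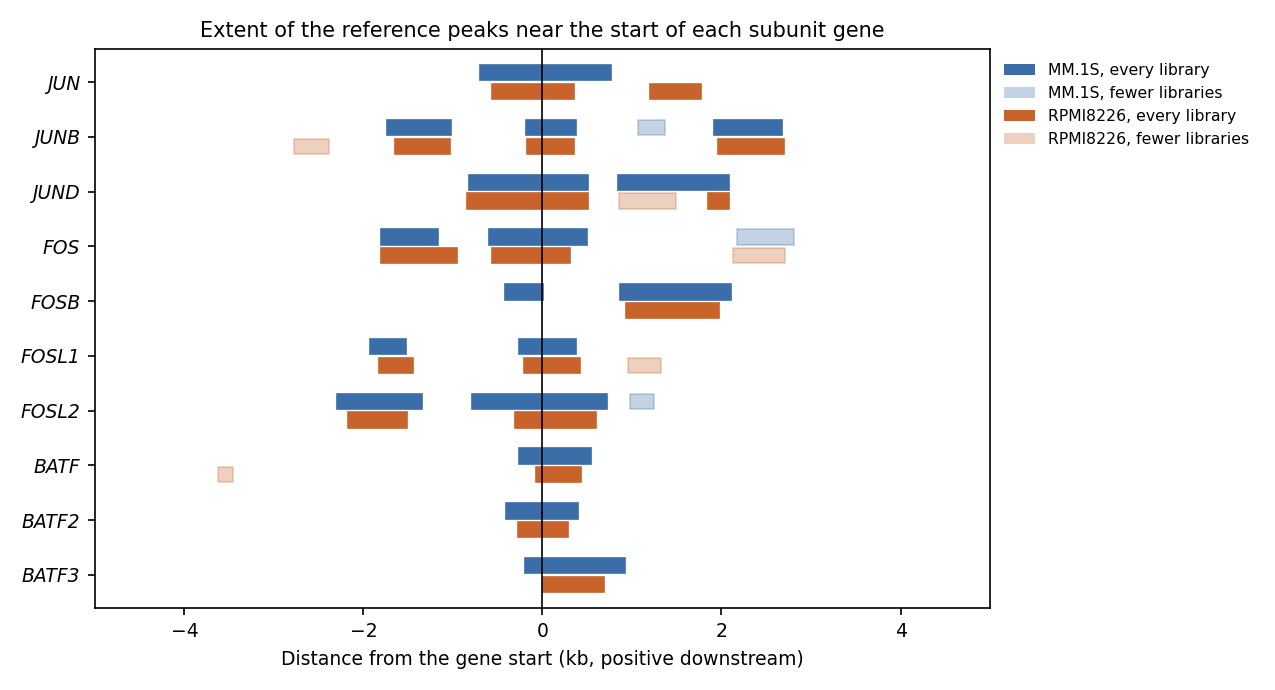
Extent of reference peaks within 5 kb of each subunit gene's start, on an axis of distance in kb with downstream positive. Blue bars are MM.1S peaks and orange bars RPMI8226 peaks, with full colour for peaks with full support and pale colour for fewer; FOSB and BATF3 lack an RPMI8226 bar over the start.

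MM.1S peaks were also mostly the wider ones across the windows, start peaks included. Over the subunit windows, 131 pairs of peaks overlapped each other and no further peak, and the MM.1S peak was wider in 113 of them (86.3%, median 744 bp against 526 bp). Over the whole lists it was wider in 81.6% of 44631 pairs. Scaled to the covered bases of each list, the ratio of covered bases, RPMI8226 over MM.1S, ran from 0.733 at FOSL2 to 1.19 at FOS, above 1 at 4 loci and below 1 at 6. Width can change with how peak edges of the libraries were joined, a step not described in the sources used here, and its part in these widths was not tested.

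The windows were rich in promoters. Promoter peaks made up 62.2% of MM.1S peaks at the subunit loci (95% Wilson interval 55.0 to 68.8) and 61.1% of RPMI8226 peaks (53.9 to 67.8), beside 39.2% and 36.0% of the whole lists. Most of them belonged to neighbouring genes. A median of 18.0 MM.1S peaks and 20.5 RPMI8226 peaks lay in a subunit window, beside 11.0 and 11.0 for all protein-coding genes.

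Most peaks at the subunit genes were common to the lines. Shared peaks were 139 of 185 in MM.1S (75.1%, 68.4 to 80.8) and 147 of 185 in RPMI8226 (79.5%, 73.1 to 84.7), beside 64.6% and 62.0% of the whole lists. Among distal peaks, 47 of 70 were shared in MM.1S (67.1%) and 47 of 72 in RPMI8226 (65.3%), beside 60.0% and 53.7%. Peaks called in every library were 64.9% in MM.1S and 73.5% in RPMI8226, beside 52.0% and 64.1%.

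Support of the line-only distal peaks differed. In MM.1S only 1 of 23 was called in all 9 libraries (4.35%, 0.772 to 21.0), beside 23.4% of such peaks in the whole list. In RPMI8226 10 of 25 were called in all 5 libraries (40.0%, 23.4 to 59.3), beside 43.3% in the whole list. The single MM.1S peak was the one upstream of JUND. The 10 RPMI8226 peaks were spread over 5 genes, namely FOS, FOSL1, FOSL2, BATF and BATF3, and the JUN family had 0. Being called in all of 9 libraries is a higher bar than being called in all of 5, so these shares are to be read against those of their own list. Per the study, 1 MM.1S monoculture library also had far fewer read pairs than the other MM.1S libraries. The part of that library in the full support of MM.1S peaks was not tested.

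**Figure D3:**
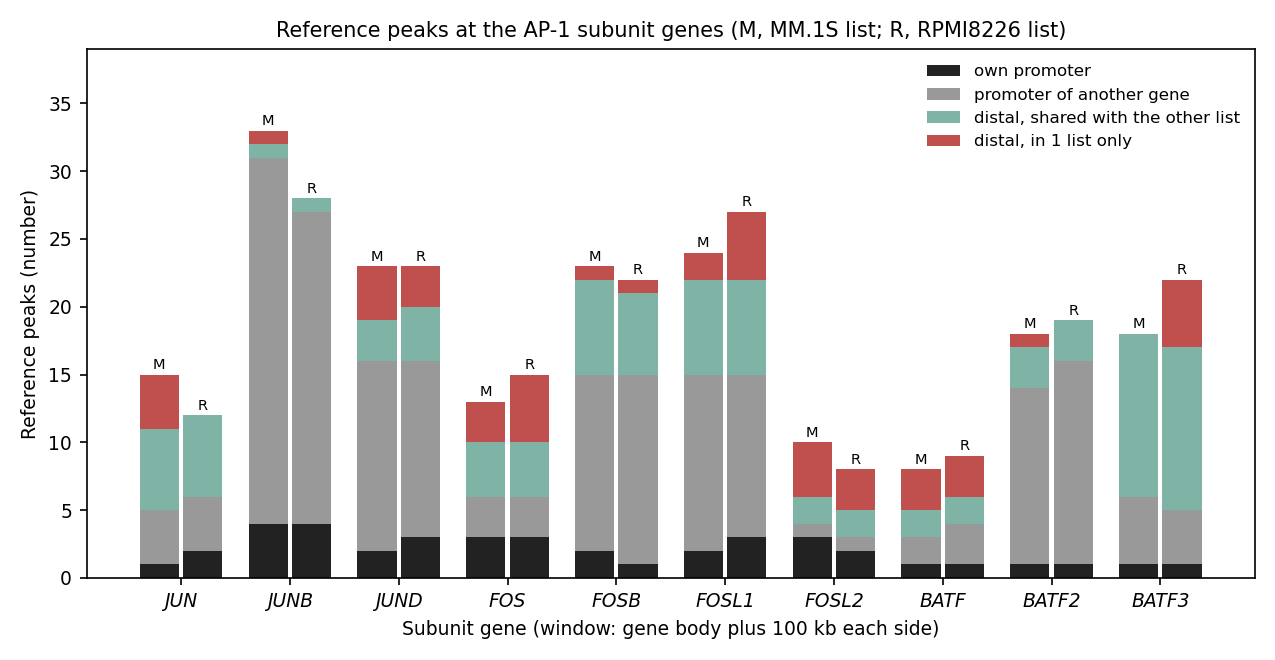
Number of reference peaks at each subunit gene in the MM.1S list (M) and the RPMI8226 list (R), stacked by class. Black is the gene's own promoter, grey the promoter of another gene, green distal peaks shared with the other list and red distal peaks in 1 list only; red is confined to MM.1S at JUN, JUNB and BATF2 and to RPMI8226 at BATF3.

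The 3 JUN family windows held 71 peaks in MM.1S and 63 in RPMI8226, the 4 FOS family windows 70 and 72, and the 3 BATF family windows 44 and 50. In the JUN family, 9 of 19 distal peaks were line-only in MM.1S and 3 of 14 in RPMI8226. In the FOS family these were 10 of 30 and 14 of 33, and in the BATF family 4 of 21 and 8 of 25. Over the whole lists, 17715 of 44290 distal peaks were line-only in MM.1S and 23675 of 51152 in RPMI8226. Differences between the families were not tested.

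JUN (ENSG00000177606.9, chr1:58776845-58784048, reverse strand) encodes c-Jun, the founding subunit that JNK kinases phosphorylate. Its window held 15 MM.1S peaks and 12 RPMI8226 peaks, a ratio of 0.728 (0.311 to 1.67), with 1 other protein-coding gene in it. The difference sat in distal peaks, 10 in MM.1S and 6 in RPMI8226. All 6 RPMI8226 distal peaks were shared, whereas 4 of the MM.1S distal peaks were line-only. With distal peaks alone the ratio was 0.520 (0.155 to 1.58) and with peaks called in every library alone it was 0.656 (0.220 to 1.92). Both were past the fold of 1.5 towards MM.1S. With flanks of 50 kb it was 0.910 (0.272 to 3.04) and with flanks of 200 kb 0.993 (0.533 to 1.86), so the lean depended on the setting. Of those 4 MM.1S-only peaks, 3 formed a group 52.3, 59.3 and 60.9 kb downstream of the start, called in 8, 4 and 5 of 9 libraries, inside an intron of the non-coding gene ENSG00000283445. The start peak spanned 1466 bp in MM.1S and 918 bp in RPMI8226. RPMI8226 alone had a further peak of 572 bp in an exon of JUN, 1486 bp downstream of the start, in 5 of 5 libraries. Chromosome 1 as a whole had relatively more RPMI8226 peaks (ratio 1.09), and the JUN ratio over that of its chromosome was 0.669 (0.286 to 1.53). Chromosome 19 had relatively fewer (0.860), and scaled in this way JUNB, JUND and FOSB had 0.898, 1.06 and 1.01. The same scaling gave 1.02 at BATF3, also on chromosome 1. At FOS, FOSL1, FOSL2, BATF and BATF2 it gave 0.969, 1.13, 0.736, 0.945 and 1.06.

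JUNB (ENSG00000171223.6, chr19:12791486-12793315, forward strand) encodes a subunit that restrains c-Jun in some settings and promotes MM cell growth. It lies in a gene-dense region with 14 other protein-coding genes in the window, and it had the most MM.1S peaks of the 10 loci, 33, with 28 in RPMI8226 (ratio 0.772, 0.450 to 1.32). Promoter peaks were 31 and 27 of them, and 24 in each list were shared. The gene itself had 4 own promoter peaks in each list. The start peak was 559 bp wide in MM.1S and 527 bp wide in RPMI8226. The peak with the STAT3 element, centred 2209 bp downstream of the start and in an intron of HOOK2, was shared and called in every library of both lines, 764 bp wide in MM.1S and 742 bp in RPMI8226. Among the 9 MM.1S-only peaks, 3 were called in all 9 libraries, at promoters of HOOK2 and of MAST1 and RTBDN.

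JUND (ENSG00000130522.6, chr19:18279694-18281622, reverse strand) encodes the JUN protein that is present in many resting cells. Its window held 23 peaks in each list (ratio 0.910, 0.488 to 1.70), of which 14 in MM.1S and 18 in RPMI8226 were shared. The start peak with the CRE was of like width in the lines. The MM.1S-only peak 13.1 kb upstream was 519 bp wide. In the same intergenic stretch RPMI8226 had 2 line-only peaks 8.91 and 11.7 kb upstream, each in 4 of 5 libraries and without a central AP-1 match. Between them lay a shared peak 10.5 kb upstream, 832 bp wide and in 7 of 9 libraries in MM.1S and 972 bp wide and in 5 of 5 in RPMI8226, and farther upstream an MM.1S peak of 1935 bp, centred 22.7 kb from the start, overlapped 2 RPMI8226 peaks. A further MM.1S-only distal peak with a central AP-1 match lay 24.8 kb upstream, in 4 of 9 libraries.

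FOS (ENSG00000170345.10, chr14:75278826-75282230, forward strand) encodes c-Fos, the classic immediate early subunit. It was the only protein-coding gene of its window, so that its 13 MM.1S peaks and 15 RPMI8226 peaks (ratio 1.05, 0.466 to 2.40) had no other coding promoter among them. Of these, 9 in each list were shared. The start peak with the SRE spanned 1094 bp in MM.1S and 867 bp in RPMI8226. RPMI8226 had 5 line-only distal peaks, of which those 47.3 kb upstream and 28.3 kb downstream were called in 5 of 5 libraries. MM.1S had 3, at 24.8, 29.1 and 85.2 kb downstream, called in 5, 5 and 6 of 9 libraries. The RPMI8226 peak 28.3 kb downstream and the MM.1S peak 29.1 kb downstream were neighbours without overlap.

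FOSB (ENSG00000125740.15, chr19:45467995-45475179, forward strand) encodes the FOS paralogue known for its lasting splice form in neurons. Its counts were alike, 23 in MM.1S and 22 in RPMI8226 (ratio 0.871, 0.463 to 1.63), and 95.5% of its RPMI8226 peaks were shared, the highest share of any subunit locus. Besides the start peak, 3 MM.1S peaks (in 3, 8 and 5 of 9 libraries) and 1 RPMI8226 peak (in 3 of 5) were line-only, and among the 5 line-only peaks of the locus the start peak alone was called in every library. In MM.1S a peak of 433 bp at chr19:45467572-45468004 covered it in 9 of 9 libraries and held both the CRE and the SRE, while the nearest RPMI8226 peak began 929 bp downstream. That peak, 1046 bp wide at chr19:45468924-45469969, was called in 5 of 5 libraries and overlapped an MM.1S peak in 9 of 9 libraries. Both lists thus held open chromatin inside the gene, and the MM.1S list alone held it over the start and the elements upstream. The RefSeq start, 1 bp away, gave the same result, and 3 of 8 annotated FOSB starts lay inside an RPMI8226 peak against 5 of 8 inside an MM.1S peak.

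FOSL1 (ENSG00000175592.9, chr11:65892049-65900573, reverse strand) encodes FRA1, a subunit itself induced by AP-1. Its window held 24 MM.1S peaks and 27 RPMI8226 peaks (ratio 1.02, 0.569 to 1.85). It was the most firmly supported locus of RPMI8226, with 26 of 27 peaks called in every library (96.3%), and 20 of 24 in MM.1S (83.3%). All 5 RPMI8226-only distal peaks were called in 5 of 5 libraries. They lay 40.9, 68.6 and 69.6 kb upstream and 51.3 and 86.3 kb downstream, with widths of 595, 614, 257, 740 and 195 bp in that order, and the farthest upstream pair was in an intron of SART1. The 2 MM.1S-only distal peaks, 1164 bp wide in an exon of SNX32 and 262 bp wide in an intron of FOSL1, were called in 8 and 4 of 9 libraries. The start was covered in both lists, by 648 bp in MM.1S and 620 bp in RPMI8226, and both peaks spanned an AP-1 match 187 bp downstream of the start. In RPMI8226 another peak of 364 bp in the intron of FOSL1, with an AP-1 match 1184 bp downstream of the start, was called in 4 of 5 libraries and had no MM.1S partner.

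FOSL2 (ENSG00000075426.12, chr2:28392448-28417317, forward strand) encodes FRA2. With 10 MM.1S peaks and 8 RPMI8226 peaks (ratio 0.728, 0.250 to 2.05) it was sparse, and it had the lowest shared share in MM.1S, 5 of 10 peaks. The start peak was 1513 bp wide in MM.1S, the widest of the subunit start peaks, and 908 bp wide in RPMI8226. MM.1S had 4 line-only distal peaks, called in 3, 6, 5 and 8 of 9 libraries. RPMI8226 had 3, of which the one 36.1 kb upstream (319 bp, intergenic) was called in 5 of 5 libraries.

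BATF (ENSG00000156127.8, chr14:75522455-75546993, forward strand) encodes the lymphoid subunit that pairs with JUN proteins and IRF4. It had the fewest MM.1S peaks of the 10 loci, 8, with 9 in RPMI8226 (ratio 1.02, 0.351 to 3.05), and 5 in each list were shared. The start peak spanned 804 bp in MM.1S and 500 bp in RPMI8226. Upstream, MM.1S had one 7.19 kb from the start, 417 bp wide and in 8 of 9 libraries, whereas RPMI8226 had one at 3.54 kb in 4 of 5 libraries and the AP-1 peak at 34.9 kb, 206 bp wide, in 5 of 5. Besides AP-1, this last peak held 1 match to the ATF::CEBP sequence TGATGNAA, which occurred in 6.61% of RPMI8226 distal peaks.

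BATF2 (ENSG00000168062.10, chr11:64987945-64997018, reverse strand) encodes an interferon-induced relative. Its 18 MM.1S peaks and 19 RPMI8226 peaks (ratio 0.961, 0.477 to 1.94) were mostly promoters of the 14 other coding genes, and 88.9% and 89.5% were shared. With its few distal peaks alone, 4 and 3, the ratio was 0.649 (0.0951 to 3.84). The start peak was 806 bp wide in MM.1S and 559 bp wide in RPMI8226. In each list 2 of 5 annotated BATF2 starts lay inside a peak. A RefSeq start at chr11:64990277, inside the gene, lay inside no peak of either list.

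BATF3 (ENSG00000123685.9, chr1:212686417-212699840, reverse strand) encodes a subunit best known from dendritic cells. It had the highest ratio under the reported settings, 1.11 (0.570 to 2.20), with 18 MM.1S peaks and 22 RPMI8226 peaks. The ratio was 1.30 with flanks of 50 kb and 1.23 with distal peaks alone. It was 1.02 scaled to its own chromosome, where FOSL1 had 1.13, and 0.787 with peaks called in every library alone. All 12 MM.1S distal peaks were shared, and RPMI8226 had 5 distal peaks of its own, of which 1, intergenic and 55.7 kb downstream, was called in 5 of 5 libraries. The start lay inside the MM.1S peak of 1121 bp, while the RPMI8226 peak of 684 bp ended 9 bp short of it, so the difference at this start was one of peak edges. ATF3, which encodes a partner of JUN proteins, lies in the same window. Its promoter held a shared peak called in every library of both lines, 1799 bp wide in MM.1S and 1698 bp wide in RPMI8226. Beside that shared peak, an MM.1S-only peak of 775 bp was called in 8 of 9 libraries.

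**Figure D4:**
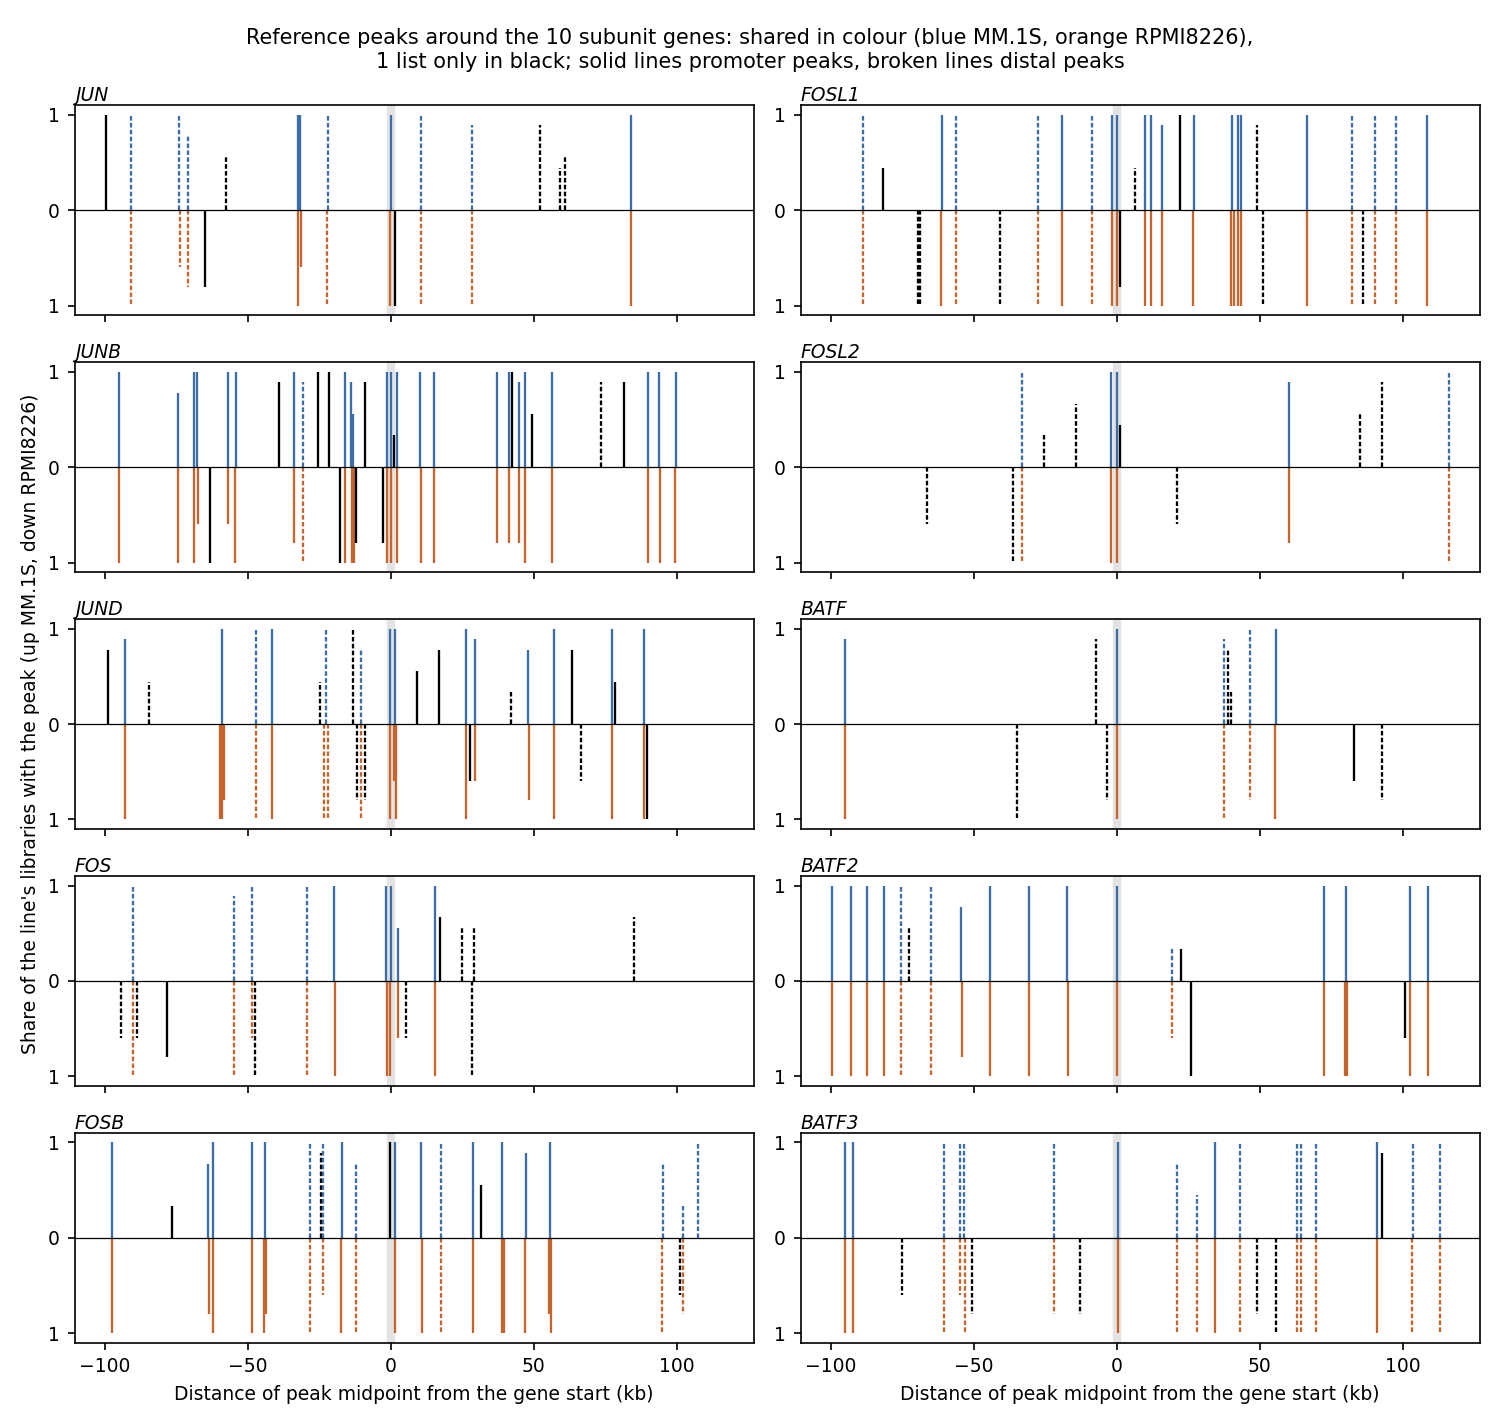
Every reference peak around the 10 subunit genes, by distance of its midpoint from the gene start in kb. Line height is the share of the line's libraries with the peak (up for MM.1S, down for RPMI8226), shared peaks are blue or orange, peaks in 1 list only are black, solid lines are promoter peaks and broken lines distal peaks; at FOSL1 all 5 black broken lines of RPMI8226 reach full height.

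The AP-1 sequence stood in the centre of 9 of 70 distal MM.1S peaks at the subunit genes (12.9%, 6.91 to 22.7) and of 13 of 72 distal RPMI8226 peaks (18.1%, 10.9 to 28.5). The whole-list shares, 9.16% and 17.0%, lay inside these intervals. For peaks narrower than 200 bp the central search differed. At the subunit genes it stopped at the peak edges, while in the whole lists it took the full 200 bp around the midpoint. Among line-only distal peaks the share was 3 of 23 in MM.1S (13.0%, 4.54 to 32.1) and 6 of 25 in RPMI8226 (24.0%, 11.5 to 43.4), beside 5.65% and 21.8% in the whole lists. In shared distal peaks it was 12.8% and 14.9%, beside 11.5% and 12.9%. Over all peaks at the subunit genes, promoter peaks included, the share was 10 of 185 in MM.1S (5.41%, 2.96 to 9.66) and 25 of 185 in RPMI8226 (13.5%, 9.32 to 19.2), beside 7.42% and 14.2% in the whole lists. The higher central share in RPMI8226 was thus seen in the whole lists as well. Searched over the whole peak, the share was 15 of 70 distal MM.1S peaks (21.4%) and 16 of 72 distal RPMI8226 peaks (22.2%). The whole lists then had 17.5% and 23.4%, so with whole peaks the shares at the subunit genes were alike in the lines. The difference between the lines was not tested.

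**Figure D5:**
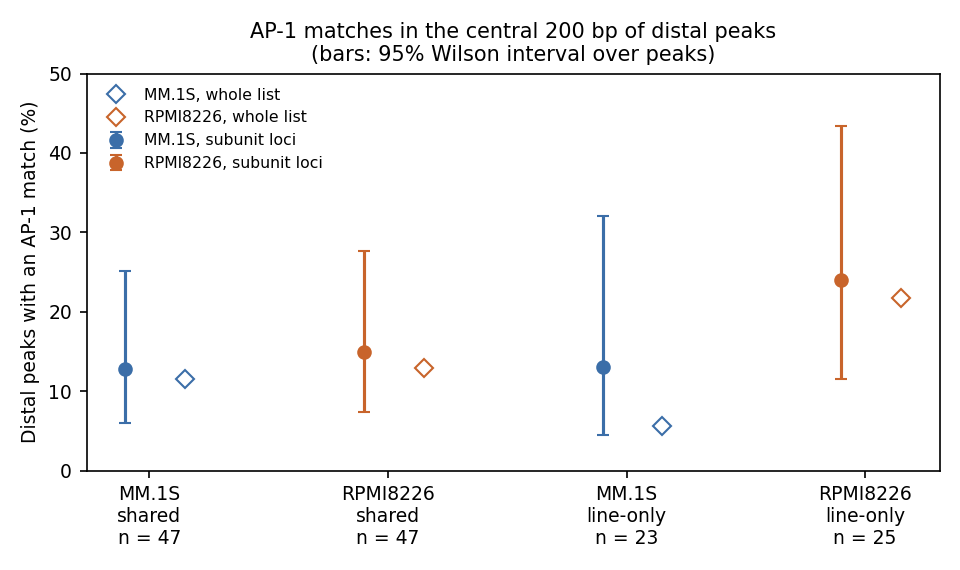
Percent of distal peaks with an AP-1 match in their central 200 bp, for shared and line-only peaks of each list. Filled circles are the subunit loci with 95% Wilson intervals over peaks and open diamonds the whole lists; each diamond lies inside the interval of its circle, from 5.65% against 13.0% (MM.1S line-only) to 21.8% against 24.0% (RPMI8226 line-only).

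The same rule, which called 10.8% of all genes for RPMI8226 and 16.3% for MM.1S, was applied to genes upstream and downstream of AP-1. Of 11 upstream kinases and factors, 1 was more open in RPMI8226, the p38 kinase gene MAPK14 (1.74, 0.801 to 3.99), 0 in MM.1S, and 1, MAP2K4, had too few peaks. Of 10 known target genes, 1 was more open in RPMI8226, the chemokine gene CXCL8 (1.59, 0.624 to 4.38), and 1 in MM.1S, the cytokine gene IL6 (0.607, 0.244 to 1.44). CXCL8 had an own promoter peak in RPMI8226 and none in MM.1S. The median ratios of these lists were 0.910 and 0.869, beside 0.910 for all genes, and the intervals of the 3 genes called included 1.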

How the data were processed

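Per the labels and the study's methods, reads were aligned to hg38 with Bowtie2 and peaks were called per library with MACS3 (versions not given in the sources used here), and the authors kept peaks found in at least 3 libraries of a line. The deposited value per peak, of a kind other than reads, is a whole number with no header, read as the number of libraries with the peak because it ends at 9 and 5. Starts were read as 0-based, as in BED files, which no header states. The lists pool MONO, TSW and CO, so samples, grouped by title, were not compared.

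Starts came from GENCODE release 44. Intervals at 95% are Wilson for shares and Clopper-Pearson for ratios. Named peaks were, per gene, the best supported own promoter peak, the widest line-only distal peak called in every library, and line-only distal peaks in every library with an AP-1 match. Other peaks were named after their values were seen. A list of partner genes is not reported here. Members and gene lists were chosen with earlier results of these data known. The code for the ratio was checked on simulated lists with known ratios. Python 3.11.15, NumPy 2.4.6, SciPy 1.17.1 and Matplotlib 3.10.9 were used. Alternatives covered window, promoter width, overlap, support, scaling and fold.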

Additional observations from a re-analysis of the deposited data

How the results depend on the processing

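No locus was more open in RPMI8226 under any of the 8 alternatives tried for that call, and no called value changed sign, since no locus was called under the reported settings. The ratios themselves lay close to 1, and 16 of 70 recomputed ratios, at 7 genes (JUND, FOS, FOSB, FOSL1, BATF, BATF2 and BATF3), fell on the other side of 1, between 0.780 and 1.06, so no direction is given for these genes. Towards MM.1S, distal peaks alone called 2 loci (JUN and BATF2, of 9 with enough peaks, where 25.0% of all genes were called) and peaks in every library called 1 (JUN, where 19.4% were called). Of the 70 ratios, 1 left the 95% interval of the reported ratio, at JUNB with distal peaks alone (0.433, on 3 peaks). Of 44 recomputed summary values, 24 held and 20 moved, mostly because a setting admits more or fewer peaks. Flanks of 50 kb gave 110 peaks in MM.1S and 108 in RPMI8226, flanks of 200 kb gave 316 and 329, and peaks in every library numbered 120 in MM.1S. The promoter share was 48.1% and 49.2% with 1000 bp and 69.2% and 69.7% with 5000 bp. The shared share was 61.1% and 60.5% when 50% of both peaks had to overlap, 94.2% and 89.0% for peaks in every library, and 67.1% and 65.3% for distal peaks. The share called in every library was 51.4% and 66.7% for distal peaks. The AP-1 share of all peaks was 5.41% and 13.5%, and that of distal peaks searched over their whole width was 21.4% and 22.2%. No paired analysis was possible because each line has a single pooled list and no result comes from a test. Leaving out a library was not possible for the same reason, and the number of peaks per locus limits what could be detected.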
